A study of Mus musculus with 66 samples.

Results

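Brain RNA of mice homozygous for the Rorb h4 allele was compared with brain RNA of C57BL/6J mice, using 4 Rorb h4/h4 and 3 C57BL/6J brain hemisections out of 66 samples in the series. The members were chosen by the labelled tissue and genotype, and every gene measured in these 7 libraries was considered. The series collects spontaneous mouse lines with a high-stepping gait and mutations in Rorb, sampled as brain hemisection, spinal cord and, outside this comparison, cortex, hippocampus and cerebellum, and the question addressed here is which transcripts differ in the brain of the h4 line. The h4 allele is a single base substitution that creates a premature stop codon in an exon shared by both Rorb isoforms, and the line was found in a colony on the B6.129S7-Il1r1 tm1/mx/J background, which carries a targeted interleukin 1 receptor allele. The h4 mice were 8.4 to 8.6 weeks old, with 2 females and 2 males, and the C57BL/6J mice were 8.0 weeks old, with 2 females and 1 male. The labels do not give a shared litter for mutants and controls, and the allele, the line with its background and the age of the mice cannot be told apart. Each sample was a sagittal hemisection of the brain of 1 mouse, so that in these bulk samples fewer cells of a type and less RNA per cell cannot be told apart.

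RORβ is a nuclear receptor of the retinoic acid receptor-related orphan receptor family and binds DNA at response elements also recognised by RORα and the REV-ERB repressors. In the brain it is known as a marker of cortical layer 4, where it takes part in the patterning of thalamic input, and it is also found in thalamus, hypothalamus, spinal interneurons and retina. Proteins entering the endoplasmic reticulum (ER) are folded by chaperones such as BiP, and the genes of these chaperones are induced together by the transcription factors ATF6 and XBP1 through the ER stress response element (ERSE), made of CCAAT and CCACG separated by 9 bases.

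The promoters of ER chaperone genes are shown here because these genes gave more calls than any other list examined among the transcripts that were lower in Rorb h4/h4 brain. The windows are from RefSeq (GRCm38.p6) and are written along the strand of the gene, 5′ to 3′, with the ERSE in capitals and 3 flanking bases on each side. In Calr and in one site of Hsp90b1 the element lies on the opposite strand, so that it reads CGTGG before ATTGG. The matches lie at chr2:34772022-34772046 (plus strand) for Hspa5, chr8:84847072-84847096 (minus strand) for Calr, chr10:86705635-86705659 and chr10:86705530-86705554 (minus strand) for Hsp90b1, chr12:17266488-17266512 (plus strand) for Pdia6 and chr14:118937824-118937848 (plus strand) for Dnajc3.
Hspa5: tcaCCAATCGGAGGCCTCCACGacg
Calr: acgCGTGGTCGACCCTCATTGGccc
Hsp90b1, first site: agcCCAATCGCAAGGAGCCACGctt
Hsp90b1, second site: gtgCGTGGTGAGGCACGATTGGtga
Pdia6: agaCCAATGAAAGGCGGCCACGgcg
Dnajc3: caaCCAATCAGCGCCAACCACGacc
Dnajb11 and Herpud1 held the related ERSE-II instead, made of ATTGG and CCACG separated by 1 base, at chr16:22857849-22857865 and chr8:94386374-94386390, both on the plus strand.
Dnajb11: gcgATTGGCCCACGcct
Herpud1: ctgATTGGGCCACGttg
The whole promoter window of Hspa5, the gene of BiP, is chr2:34771840-34772139 on the plus strand, from 250 bases before to 50 bases after the start site.
Hspa5: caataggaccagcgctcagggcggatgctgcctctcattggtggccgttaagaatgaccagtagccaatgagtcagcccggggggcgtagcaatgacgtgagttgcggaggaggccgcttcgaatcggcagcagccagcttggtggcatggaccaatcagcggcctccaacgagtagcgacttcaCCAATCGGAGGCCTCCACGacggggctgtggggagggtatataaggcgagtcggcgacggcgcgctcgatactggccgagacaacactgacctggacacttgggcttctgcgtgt

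Libraries held 33907228 to 54446911 expected counts, and 17789 genes passed the filter on low counts. Levels below are CPM, counts relative to library size, scaled by the trimmed mean of M-values (TMM), and p-values come from the quasi-likelihood test of edgeR with Benjamini-Hochberg adjustment over all genes tested. A gene was called when its adjusted p was under 0.05.

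Rorb transcript was the most significantly changed in the whole table. Rorb (ENSMUSG00000036192; GRCm38 chr19:18930609-19111196) stood at 52.4, 50.5 and 60.6 CPM in the C57BL/6J brains and at 12.1, 14.7, 10.4 and 13.4 CPM in the h4 brains. All 4 h4 brains lay far below the lowest control. The mean fell from 54.5 ± 5.35 CPM (SD, n = 3) to 12.6 ± 1.83 CPM (SD, n = 4), a log2 fold change of -2.10 (SE 0.10, adjusted p = 2.4e-06, edgeR), which leaves 0.233 of the control level. An exact two-sided permutation test of the CPM gave p = 0.0286, the smallest value that 35 arrangements of 7 samples allow. Per unit of length, the level of Rorb went from 11.9 ± 1.12 to 3.07 ± 0.42 TPM, the length-scaled abundance given by RSEM (SD, n = 3 and 4).

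The related receptor genes Rora, Nr1d1 and Nr1d2 were not called. Rora, which marks cerebellar and thalamic neurons among others, had 56.2 ± 3.34 TPM in controls and 52.5 ± 6.91 TPM in h4 (SD, n = 3 and 4), with a log2 fold change of -0.04 (SE 0.07). For the clock repressors Nr1d1 and Nr1d2 the log2 fold changes were 0.02 (SE 0.11) and 0.04 (SE 0.08).

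Of 17789 genes tested, 125 were called, which is 0.703% of them. Lower levels in h4 were found for 83 genes (0.467%) and higher levels for 42 genes (0.236%), and 2349 genes had an unadjusted p under 0.05. The changes were mostly small, with 69 of the 125 genes under 0.5 on the log2 scale, 50 between 0.5 and 1, and 6 over 1, and a median absolute log2 fold change of 0.47. In all 125 the values of the 4 mutants did not overlap those of the 3 controls. Over all genes tested, every h4 brain was below every control for 6.43% and above every control for 5.82%. The number of calls depended on single libraries, ranging from 53 without C57BL/6J replicate 1 to 182 without h4 replicate 1, with 71 without C57BL/6J replicate 2, 82 without C57BL/6J replicate 3, and 57, 60 and 68 without h4 replicates 2, 3 and 4. Calls that held in each of these 7 fits numbered 38.

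**Figure D1:**
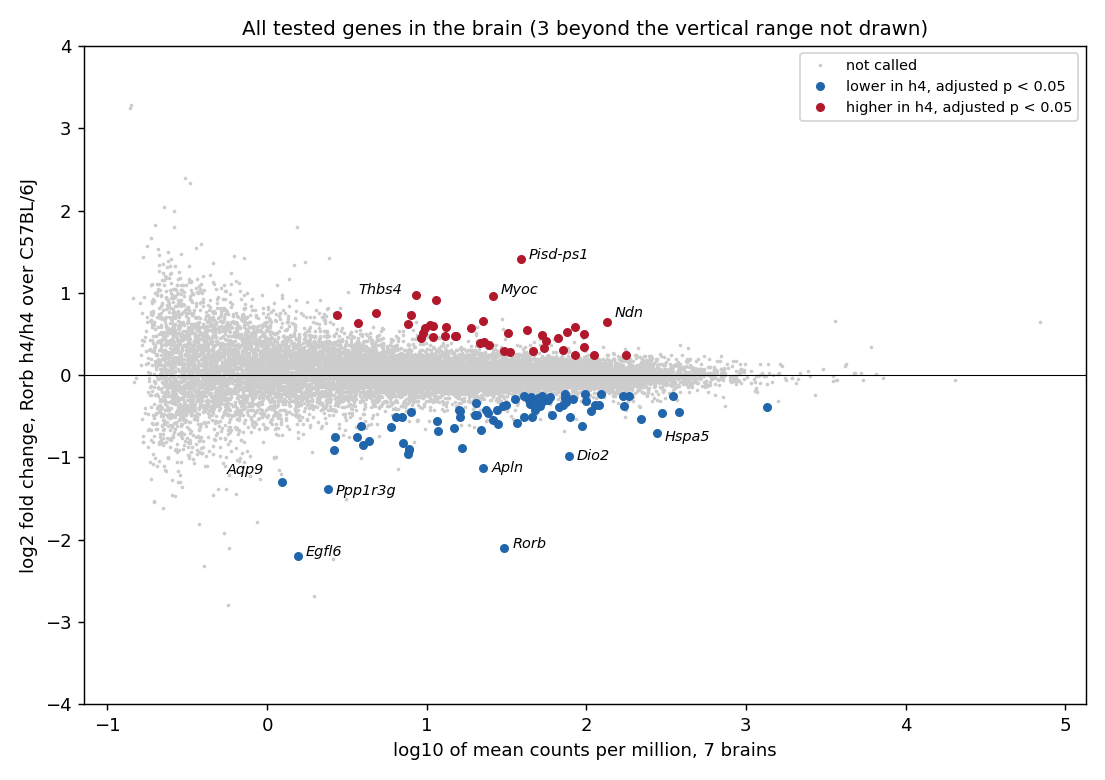
Log2 fold change of Rorb h4/h4 over C57BL/6J (vertical axis) against the log10 of the mean CPM of the 7 brains (horizontal axis) for the genes tested; blue and red points are the 83 genes called lower and the 42 called higher, grey points the rest. Rorb and Egfl6 lie lowest among the called genes, at -2.10 and -2.20, and Pisd-ps1 highest at 1.41.

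Beside Rorb, the 5 called genes that changed more than 2-fold were Egfl6, Apln, Ppp1r3g and Aqp9, all lower, and Pisd-ps1, which was higher. Egfl6, which encodes a secreted matrix protein, was at 3.25, 2.59 and 2.60 CPM in controls and at 0.695, 0.442, 0.796 and 0.547 CPM in h4. The drop to 0.218 of the control level (log2 fold change -2.20, SE 0.22, adjusted p = 0.0013, edgeR) was of the size of that of Rorb. Apln, the gene of the peptide apelin, was at 37.5, 30.8 and 30 CPM in controls and at 16.0, 12.6, 17.1 and 14.6 CPM in h4. Its highest mutant value lay well under its lowest control value, and the log2 fold change was -1.13 (SE 0.11, adjusted p = 0.00073, edgeR). Ppp1r3g, a regulatory subunit that directs protein phosphatase to glycogen, had a log2 fold change of -1.38 (SE 0.24), and Aqp9, a channel for water and glycerol, one of -1.30 (SE 0.22). Both were low, with means of 3.73 and 1.89 CPM in controls, and each was still called in 2 of the 7 fits that left out a library. Pisd-ps1, a pseudogene of the mitochondrial phosphatidylserine decarboxylase gene, ran from 18.6 to 21.5 CPM in controls and from 30.8 to 68.4 CPM in h4 (log2 fold change 1.41, SE 0.21, adjusted p = 0.01, edgeR). Reads of this pseudogene can be split with its near-identical copies, so that its level is uncertain, and without the library that mattered most its adjusted p was 0.058.

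Other leading calls went in both directions. Myoc, which encodes the secreted glycoprotein myocilin, was the most significant of the genes that rose. It was at 16.2, 17.9 and 16.4 CPM in controls and at 31.3, 33.8, 32.4 and 33.4 CPM in h4, with little spread in either group, a log2 fold change of 0.96 (SE 0.07, adjusted p = 5.1e-05, edgeR). Dio2, the deiodinase that activates thyroid hormone and in brain is found mainly in astrocytes and tanycytes, was at 111, 93.9 and 121 CPM in controls and at 55.2, 56.4, 51.7 and 56.9 CPM in h4. This is a fall to 0.508 of the control level (log2 fold change -0.98, SE 0.07, adjusted p = 7.9e-05, edgeR). Htra1, a secreted serine protease, fell by 0.62 on the log2 scale, and Mfge8, a secreted protein that bridges dying cells to phagocytes, rose by 0.50. Thbs4, a thrombospondin of the extracellular matrix, was at 5.49, 5.40 and 5.69 CPM in controls and at 6.95, 12, 11.7 and 12.7 CPM in h4 (log2 fold change 0.97, SE 0.17, adjusted p = 0.026, edgeR). In this gene h4 replicate 1 lay near the controls and the other 3 mutants at about the same high level, and it was called in 1 of the 7 fits that left out a library.

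**Figure D2:**
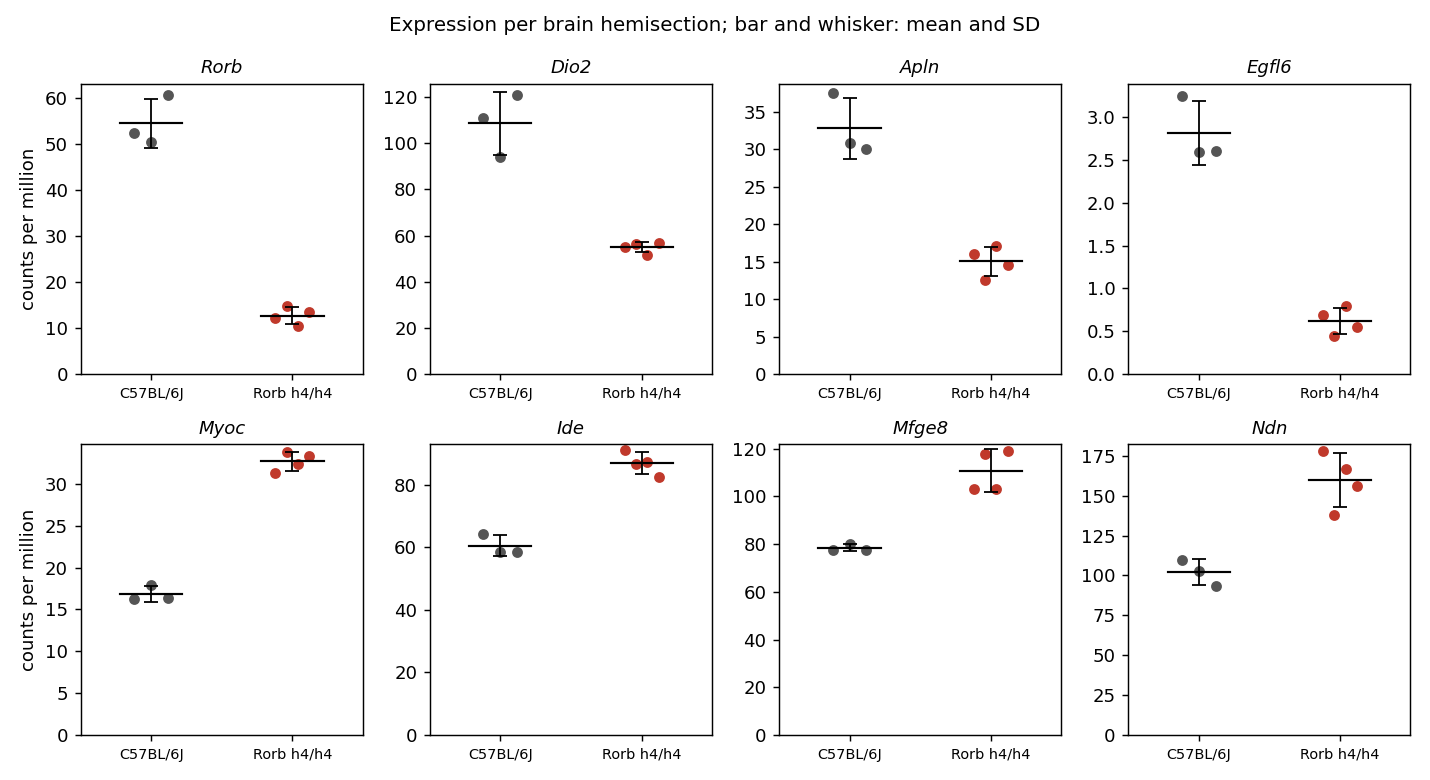
CPM in each brain hemisection (vertical axes from 0) of C57BL/6J (grey, n = 3) and Rorb h4/h4 (red, n = 4) for 8 genes, with the bar at the mean and the whisker at the SD. Rorb, Dio2, Apln and Egfl6 are lower and Myoc, Ide, Mfge8 and Ndn higher in the mutants, with no overlap of the groups.

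Further genes were named for being among the 30 smallest p-values. Slc7a11, the cystine-glutamate exchanger, was at 62.0, 61.4 and 74.5 CPM in controls and at 87.7, 102, 104 and 101 CPM in h4, a log2 fold change of 0.58 (SE 0.08, adjusted p = 0.0049, edgeR). Tnfrsf19, a receptor of the tumour necrosis factor family, rose by 0.45, Nr3c2, the mineralocorticoid receptor, by 0.41, and Serpina3n, a serine protease inhibitor raised in reactive astrocytes, by 0.58 on the log2 scale. Falls on the same scale were 0.90 for Heph, an iron oxidase, 0.68 for Irak2, a kinase downstream of interleukin 1 receptors, 0.59 for Lgi4, a secreted protein of glia, 0.53 for Paqr8, a membrane progestin receptor, 0.51 for Gpld1, a phospholipase, 0.49 for Klhdc7a, 0.44 for Daam2, a formin that acts in Wnt signalling, and 0.36 for Sgsm1. The rises of Ccdc3 and of Pla2g4e, a cytosolic phospholipase, were 0.60 and 0.73. The h4 values of the 4 brains were close together for several of these genes, such as Klhdc7a at 17.4, 17.6, 17.4 and 17.7 CPM, against 25.6, 23.7 and 24.5 CPM in controls.

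The list with the most calls was that of ER folding. This list of 35 genes of ER chaperones, disulfide isomerases and ER-associated degradation was tested in full, and 13 genes fell, which is 37.1% of the list against 0.467% of all genes tested, while none rose. Like the other lists, it was chosen with earlier results of these data known, so that its share is no independent evidence. The median log2 fold change of the list was -0.18, against 0.0035 over all genes, and 31 of its 35 values were negative. The summed level of the list was 3275 to 3842 CPM in controls and 2767 to 2923 CPM in h4, without overlap. Hspa5, the gene of BiP, was at 341, 301 and 424 CPM in controls and at 214, 209, 235 and 220 CPM in h4. The controls were widely spread and the mutants were tight, and every mutant lay below the lowest control (log2 fold change -0.70, SE 0.09, adjusted p = 0.0055, edgeR). Sdf2l1, a cofactor of BiP, was at 9.44, 7.93 and 10.9 CPM in controls and at 5.59, 4.86, 5.21 and 5.71 CPM in h4 (log2 fold change -0.82, SE 0.11, adjusted p = 0.0073, edgeR).

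Other ER chaperones moved in the same direction. Calr, the calcium-binding chaperone calreticulin, was at 347, 319 and 395 CPM in controls and at 264, 247, 259 and 255 CPM in h4, and Hsp90b1, the ER form of HSP90, at 431, 407 and 501 CPM and at 338, 311, 333 and 329 CPM. Their log2 fold changes were -0.46 (SE 0.07) and -0.45 (SE 0.07). Manf, a secreted factor of ER stress, fell by 0.58, the disulfide isomerases Pdia6, Pdia4 and Pdia3 by 0.51, 0.51 and 0.38, and the BiP cofactor Dnajb11 by 0.43 on the log2 scale. Falls of 0.39, 0.36, 0.31 and 0.26 were found for the transcription factor Xbp1, the chaperone Hyou1, the cochaperone Dnajc3 and the degradation factor Herpud1, and of the 7 fits that left out a library, Pdia4 was called in 2, Dnajc3 in 1 and Herpud1 in none. Creld2, at -0.65 (adjusted p = 0.053, edgeR), and the low Derl3, at -1.03 (adjusted p = 0.16, edgeR), were not called. The sensors Atf6 and Ern1 had log2 fold changes of -0.04 and -0.13 and were not called either. In C57BL/6J replicate 3 the summed level was the highest, and without that library 10 of the 35 genes were called and the list median was -0.18. Leaving out any 1 of the 7 libraries gave 9 to 13 called genes.

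**Figure D3:**
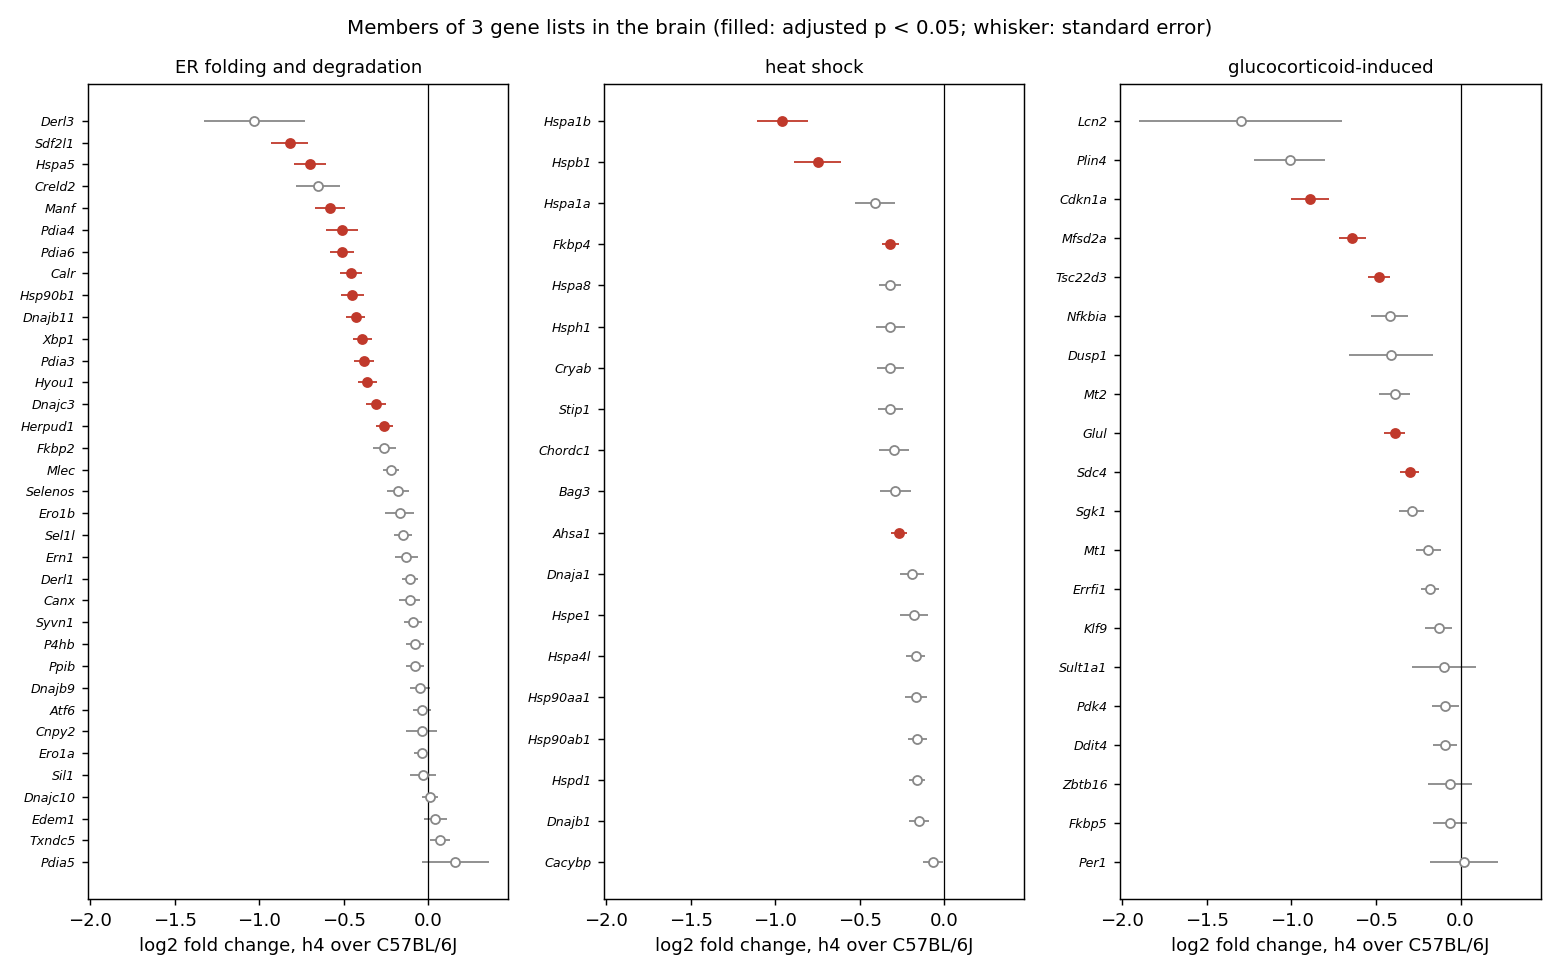
Log2 fold change (horizontal axis, with its standard error) of each member of the lists of ER folding, heat shock and glucocorticoid-induced genes; filled red points passed the adjusted p of 0.05. In the ER list 31 of 35 members lie left of 0, in the heat shock list 19 of 19 and in the glucocorticoid list 19 of 20.

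The promoter windows printed above were compared with those of all genes tested. A RefSeq promoter was found for 12388 of the 17789 genes tested, for 66 of the 83 called lower and for 32 of the 42 called higher, and a gene with several promoters counted once if any of them held the motif on either strand. ERSE was in the promoter of 5 of the 66 genes called lower (7.58%), of 21 of the 12388 genes tested (0.17%) and of 0 of the 32 called higher. For ERSE-II the numbers were 2 of 66 (3.03%) and 8 of 12388 (0.0646%). All 7 genes called lower with either element belong to the list of ER folding, in which 11 of the 13 called genes had a promoter in the table. Over the whole list, ERSE was in 10 of 30 promoters (33.3%), and the other 5, those of Creld2, Canx, Ero1b, Syvn1 and Derl3, belong to genes that were not called. The ROR response element (AA, 1 base, TAGGTCA) was in 0 of the 66 and 0 of the 32 promoters and in 24 of 12388 (0.194%). The cyclic AMP response element (TGACGTCA) was in 4 of 66 (6.06%), those of Dio2, Pcsk1, Chgb and Daam2, against 408 of 12388 (3.29%). The heat shock element (GAA, 2 bases, TTC, 2 bases, GAA) was in 0 of the 66 and in 1 of the 32, that of Myoc, against 0.541% of all. The glucocorticoid response element (GAACA, 3 bases, TGTTC) was in 0 of the 66 and 0 of the 32, against 0.0161% of all. Matches of different motifs did not overlap. A match describes letters in this window and is not evidence of binding.

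Cytosolic chaperones and glucocorticoid-induced genes also tended to lower levels. Of 19 heat shock genes tested, 4 fell (21.1%, against 0.467% of all genes tested), none rose, and all 19 values were negative, with a median log2 fold change of -0.29. Hspa1b, an inducible HSP70, was at 8.33, 9.21 and 14.0 CPM in controls and at 5.68, 5.51, 5.15 and 5.40 CPM in h4 (log2 fold change -0.96, SE 0.15, adjusted p = 0.016, edgeR). It shares most of its sequence with Hspa1a, whose log2 fold change was -0.41 (adjusted p = 0.15, edgeR), so that the division of reads between them is uncertain. The others that fell were the small heat shock protein gene Hspb1, by 0.75, and the HSP90 cochaperones Fkbp4 and Ahsa1, by 0.32 and 0.27. Of the 7 fits that left out a library, Hspb1, Fkbp4 and Ahsa1 were each called in 2 and Hspa1b in 4. Without C57BL/6J replicate 3, which had the highest value of Hspa1b, 2 of the 19 were called and the median was -0.18, and leaving out any 1 library gave 0 to 7.

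Of 20 genes known to be induced by glucocorticoids, 5 fell (25%, against 0.467% of all genes tested) and none rose, with a median log2 fold change of -0.30. Cdkn1a, the cell cycle inhibitor p21, was at 25, 22.1 and 20.5 CPM in controls and at 10.2, 11.4, 13.7 and 13.5 CPM in h4 (log2 fold change -0.89, SE 0.11, adjusted p = 0.0038, edgeR). Tsc22d3, which encodes the glucocorticoid-induced leucine zipper protein, was at 76.7, 64.7 and 76.4 CPM in controls and at 53.1, 50.2, 55.5 and 49.4 CPM in h4 (log2 fold change -0.48, SE 0.07, adjusted p = 0.0061, edgeR). Mfsd2a, the lipid transporter of brain endothelium, fell by 0.64, Glul, the glutamine synthetase of astrocytes, by 0.39, and Sdc4, a membrane proteoglycan, by 0.30. Of the 7 fits that left out a library, Sdc4 was called in 1, Glul in 6 and Mfsd2a in 7. The targets Fkbp5 and Per1 stood at -0.06 and 0.02 and were not called. The list had 4 or 5 calls when any 1 library was left out.

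In the list of genes induced by neuronal activity, h4 replicate 1 stood apart. Its summed level was 704 CPM, against 869, 876 and 935 CPM in the other h4 brains and 1023 to 1103 CPM in controls. Of 23 tested, 4 fell (17.4%, against 0.467% of all genes tested) and none rose, and the median log2 fold change was -0.30. Nptx2, a secreted synaptic pentraxin, was at 23.1, 28.8 and 30.8 CPM in controls and at 16.6, 15.7, 18.0 and 19.4 CPM in h4 (log2 fold change -0.67, SE 0.10, adjusted p = 0.014, edgeR). Egr3, Pcsk1 and Bdnf fell by 0.55, 0.43 and 0.42. Of the 7 fits that left out a library, each of these was called in 3 and Nptx2 in 6. Fos, Arc and Fosb had log2 fold changes of -0.61, -0.68 and -0.87 and were not called. Fos was at 4.89 CPM in h4 replicate 1 and at 15.4 to 17.7 CPM in the other h4 brains, Arc at 28.2 and at 53.7 to 73.7 CPM, and Egr1 at 70.3 and at 146 to 148 CPM. Without h4 replicate 1 the list had 6 calls and a median of -0.20. Without C57BL/6J replicates 2 and 3 and h4 replicate 2 in turn it had 0, 1 and 1 calls. Crh, the corticotropin-releasing hormone gene, belongs to none of these lists and was picked after its values were seen, at 3.82, 3.41 and 3.49 CPM in controls and 2.40, 1.39, 1.99 and 1.86 CPM in h4 (log2 fold change -0.91, SE 0.18, adjusted p = 0.04, edgeR). It was called in 1 of the 7 fits that left out a library.

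Markers of cell types and brain regions were compared between the groups. Among 8 markers of cortical layer 4, Rorb fell as given above and Whrn, which encodes whirlin, fell by 0.29 (SE 0.06, adjusted p = 0.044, edgeR), which was called in none of the fits that left out a library. The other 6 were not called. Their log2 fold changes were -0.43 for Rspo1, -0.34 for Scnn1a, -0.11 for Endou, 0.00 for Cux1, 0.06 for Tmem215 and 0.19 for Kcnh5. None of the markers of layers 2/3 or 5/6 was called, and their medians were both 0.13. The 11 striatal markers were all higher in h4, with a median of 0.17 and 0 called, and their summed level was 646 to 782 CPM in controls and 726 to 860 CPM in h4. The 9 cerebellar markers were all lower, with a median of -0.37 and 0 called, and a summed level of 989 to 1315 CPM in controls and 720 to 1203 CPM in h4. The 9 hindbrain markers had a median of -0.39, and their sum ran from 76.3 to 137 CPM in controls and from 43.5 to 121 CPM in h4. The part of these regional differences in the gene changes above was not tested. Medians for neurons, astrocytes, oligodendrocytes, microglia and endothelium were -0.05, -0.05, -0.16, 0.08 and -0.12. All 10 neuronal markers and all 12 astrocyte markers were measured, with sums of 6258 to 6891 and 6132 to 6608 CPM in controls and 6288 to 6765 and 5844 to 6258 CPM in h4, so that the defining markers of brain were present in all 7 samples.

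**Figure D4:**
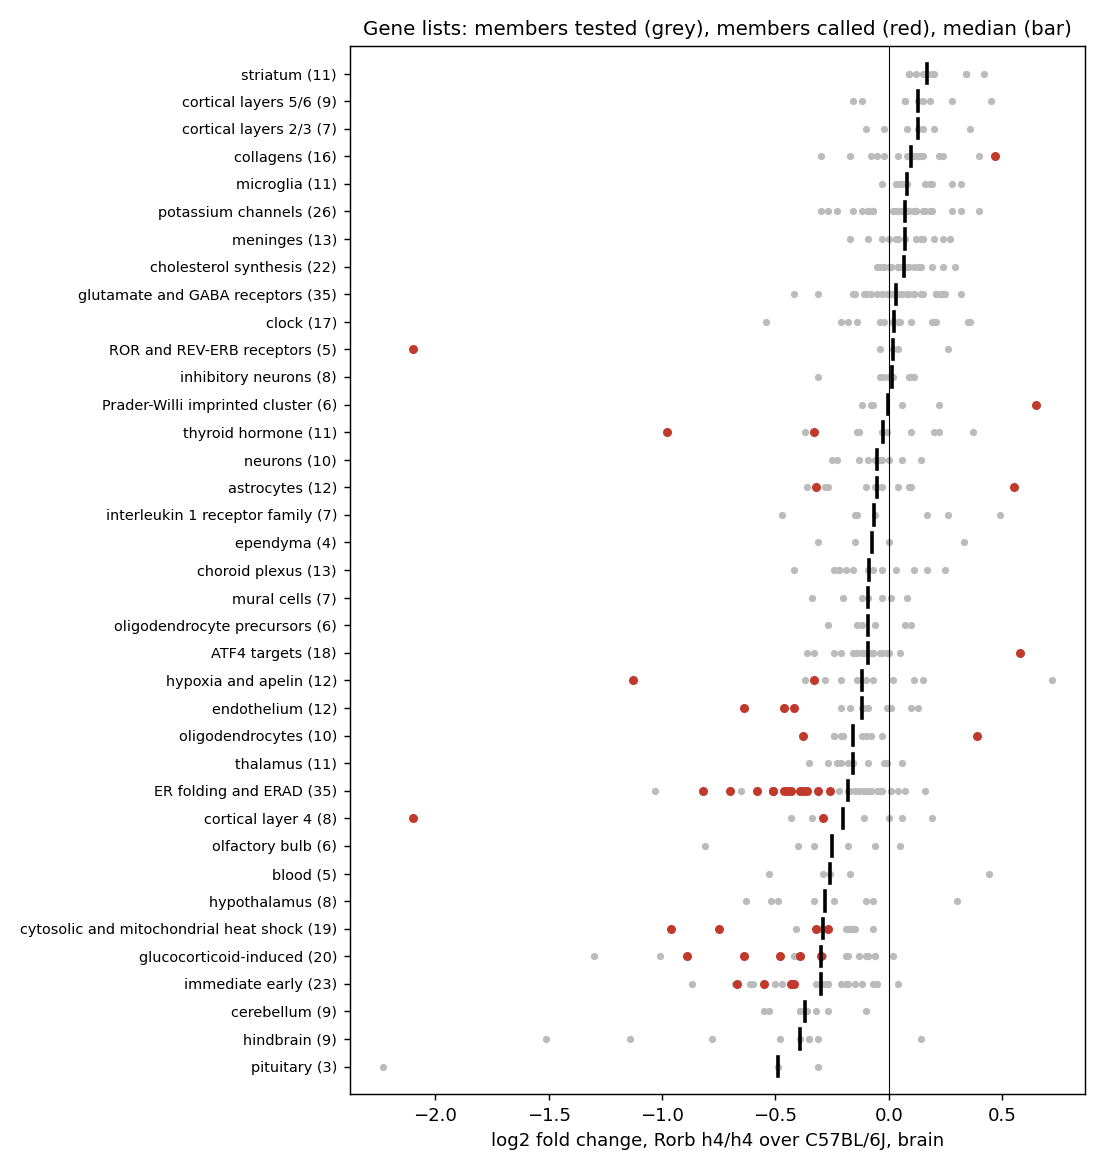
Log2 fold change of Rorb h4/h4 over C57BL/6J (horizontal axis) for the tested members of 37 gene lists, with the number tested in brackets; red points are called members and the black bar is the median of the list. The ER folding, heat shock, glucocorticoid-induced and immediate early lists have medians from -0.30 to -0.18 with several called members, and the cerebellar and hindbrain lists have medians of -0.37 and -0.39 with none.

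Single cell type genes were called in both directions. Fabp7, a fatty acid binding protein of radial glia and astrocytes, rose by 0.55, and Gjb6, the astrocytic connexin gene, fell by 0.32. Opalin, a myelin glycoprotein gene of oligodendrocytes, rose by 0.39 while Anln, a cytoskeletal protein gene also found in them, fell by 0.38. In their lists, 9 of 10 oligodendrocyte markers and 8 of 12 astrocyte markers had negative log2 fold changes. The endothelial genes Ly6c1 and Ly6a fell by 0.46 and 0.42, and as members of a family of similar genes their reads may be divided unequally. Of the 12 endothelial markers tested, 9 were not called. Slc2a1, the glucose transporter of the blood-brain barrier, fell by 0.33, and Hr, a thyroid hormone target, by 0.33. Col6a2, a collagen chain gene, rose by 0.47. Of the 7 fits that left out a library, Gjb6, Opalin and Col6a2 were each called in 1, Ly6a and Hr in 2, Fabp7 in 5, Anln and Ly6c1 in 6 and Slc2a1 in 7.

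Ndn and Ide were also higher in h4. Ndn, which encodes necdin and lies in the imprinted Prader-Willi cluster, was at 110, 103 and 93.5 CPM in controls and at 178, 138, 167 and 156 CPM in h4 (log2 fold change 0.65, SE 0.08, adjusted p = 0.0038, edgeR). The other 5 tested genes of the cluster were not called, with log2 fold changes of -0.07 for Magel2, 0.22 for Mkrn3, -0.08 for Snrpn, -0.12 for Snurf and 0.06 for Ube3a. Ide, the insulin-degrading enzyme gene, lies on the chromosome of Rorb at chr19:37268743-37334544, and was at 64.3, 58.5 and 58.6 CPM in controls and at 91.2, 86.6, 87.3 and 82.5 CPM in h4 (log2 fold change 0.52, SE 0.05, adjusted p = 0.00073, edgeR). Close to Ide, at chr19:36917550-36919599, lies Fgfbp3, which rose by 0.63 (SE 0.13, adjusted p = 0.048, edgeR). Fgfbp3 was called in none of the fits that left out a library.

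Genes near Rorb and near Il1r1, the locus of the targeted allele in the founder colony, were examined because the line was not made in C57BL/6J. Within 5 Mb of Rorb, 34 other genes were tested and 0 were called, and within 5 Mb of Il1r1, 71 were tested and 0 were called. In the same fit 125 of 17789 genes were called by edgeR, and 2349 had an unadjusted p under 0.05. The 5 genes tested within 1 Mb of Rorb, which were Ostf1, Carnmt1, Trpm6, Nmrk1 and D030056L22Rik, had log2 fold changes of 0.13, -0.14, 0.25, -0.01 and -0.03. Il1r1 itself was at 5.82, 5.96 and 7.12 CPM in controls and at 5.73, 6.19, 5.09 and 5.78 CPM in h4, and the groups overlapped (log2 fold change -0.15, SE 0.11, adjusted p = 0.60, edgeR). The 6 other tested members of the interleukin 1 receptor family had log2 fold changes between -0.47 and 0.49 and were not called. Chromosome 19 held 4 of the called genes, Rorb, Ide, Fgfbp3 and Opalin, of 523 tested on it (0.765%).

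The h4 brains were next set against 11 brains of the Rorb h1/h1 (n = 3), h2/h2 (n = 4) and h3/h3 (n = 4) lines. The h1 line arose on C57BL/6J, and the h2 and h3 lines on the albino strain B6(Cg)-Tyr c-2J/J. The h1 mice were 8.0 weeks old (2 females, 1 male), the h2 mice 7.9 to 9.4 weeks (3 females, 1 male) and the h3 mice 8.0 to 9.6 weeks (1 female, 3 males), so that allele, line, background and age cannot be told apart in these differences. In a joint fit with the controls, h4 minus the mean of the 3 other mutants gave 41 called genes of 18472 tested (0.222%), with 23 lower and 18 higher in h4. The values that follow are scaled over all 25 libraries of both tissues. Rorb ran from 34.9 to 37.4 CPM in h1, from 27.4 to 31.0 CPM in h2, from 50.7 to 55.0 CPM in h3 and from 10.4 to 14.7 CPM in h4. The h4 brains were thus the lowest of the 4 mutants, with a log2 difference of -1.58 from the mean of the others (SE 0.07, adjusted p = 3.2e-11, edgeR) and of -1.19 from h2, the next lowest. Myoc was at 19.1 to 21.0 CPM in h1, 21.3 to 26.8 CPM in h2, 12.3 to 15.7 CPM in h3 and 31.7 to 33.9 CPM in h4 (log2 difference 0.82, SE 0.06, adjusted p = 2.3e-07, edgeR). Egfl6 ran from 1.75 to 3.58 CPM over the 11 other mutants and from 0.444 to 0.801 CPM in h4 (log2 difference -2.12, SE 0.18, adjusted p = 8.6e-07, edgeR). Lgi4, Mfge8 and Apln had log2 differences of -0.60, 0.53 and -0.82. For Irak2, Dio2 and Tnfrsf19 the log2 differences were -0.57, -0.49 and 0.31. Thbs4 had one of 1.2, but its h4 range of 7.03 to 12.7 CPM overlapped that of h2, 4.57 to 7.89 CPM. Of the 41 genes, 16 also had an adjusted p under 0.05 in h4 against each of h1, h2 and h3 taken alone, which are the same libraries and no independent evidence. Among those that did not, Pisd-ps1, Slc7a11 and Glul had adjusted p of 0.53, 0.43 and 0.29 against h2 (edgeR).

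The ER folding genes had list medians of -0.12, -0.14 and -0.17 in h1, h2 and h3 against the same 3 controls. None of the 35 was called in h4 against the mean of h1, h2 and h3, and the median difference was -0.03. In the same order and against the same controls, the heat shock list had medians of -0.18, -0.15 and -0.22. The glucocorticoid-induced list had -0.10, -0.24 and -0.19, and the list induced by neuronal activity -0.38, -0.04 and -0.18. In h4 against the mean of h1, h2 and h3, these lists had 0, 1 and 0 calls, against 0.222% of all genes tested. Their median differences were -0.05, -0.12 and -0.04. Hspa5 was at 238, 256 and 280 CPM in h1, at 217 to 269 CPM in h2, at 201 to 237 CPM in h3 and at 210 to 236 CPM in h4, with a log2 difference of -0.11 (SE 0.07, adjusted p = 0.76, edgeR). Against the same 3 controls its log2 fold change was -0.47 in h1, -0.57 in h2, -0.71 in h3 and -0.70 in h4 (adjusted p = 0.74, 0.055, 0.017 and 0.0055, edgeR), and the 4 comparisons share those control libraries. It was not called in h1 or h2. Ndn was at 90.4 to 115 CPM in h1, 150 to 184 CPM in h2, 163 to 176 CPM in h3 and 139 to 180 CPM in h4, so that h4 overlapped h2 and h3. Ide was at 58.5 to 61.7 CPM in h1, 56.6 to 58.8 CPM in h2, 113 to 116 CPM in h3 and 82.3 to 92.3 CPM in h4. The h4 level of Ide lay between the others, at 0.55 and 0.60 above h1 and h2 and at -0.39 from h3 on the log2 scale, all 3 of which passed the test (adjusted p = 2.3e-07, 2.1e-08 and 5.3e-06, edgeR). Its neighbour Fgfbp3 had log2 fold changes of 0.14, -0.14 and 0.92 in h1, h2 and h3 against the controls. Of these, only that in h3 was called (adjusted p = 0.017, edgeR). Fgfbp3 in h4 against the mean of the other mutants was not called (log2 difference 0.33, adjusted p = 0.58, edgeR).

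**Figure D5:**
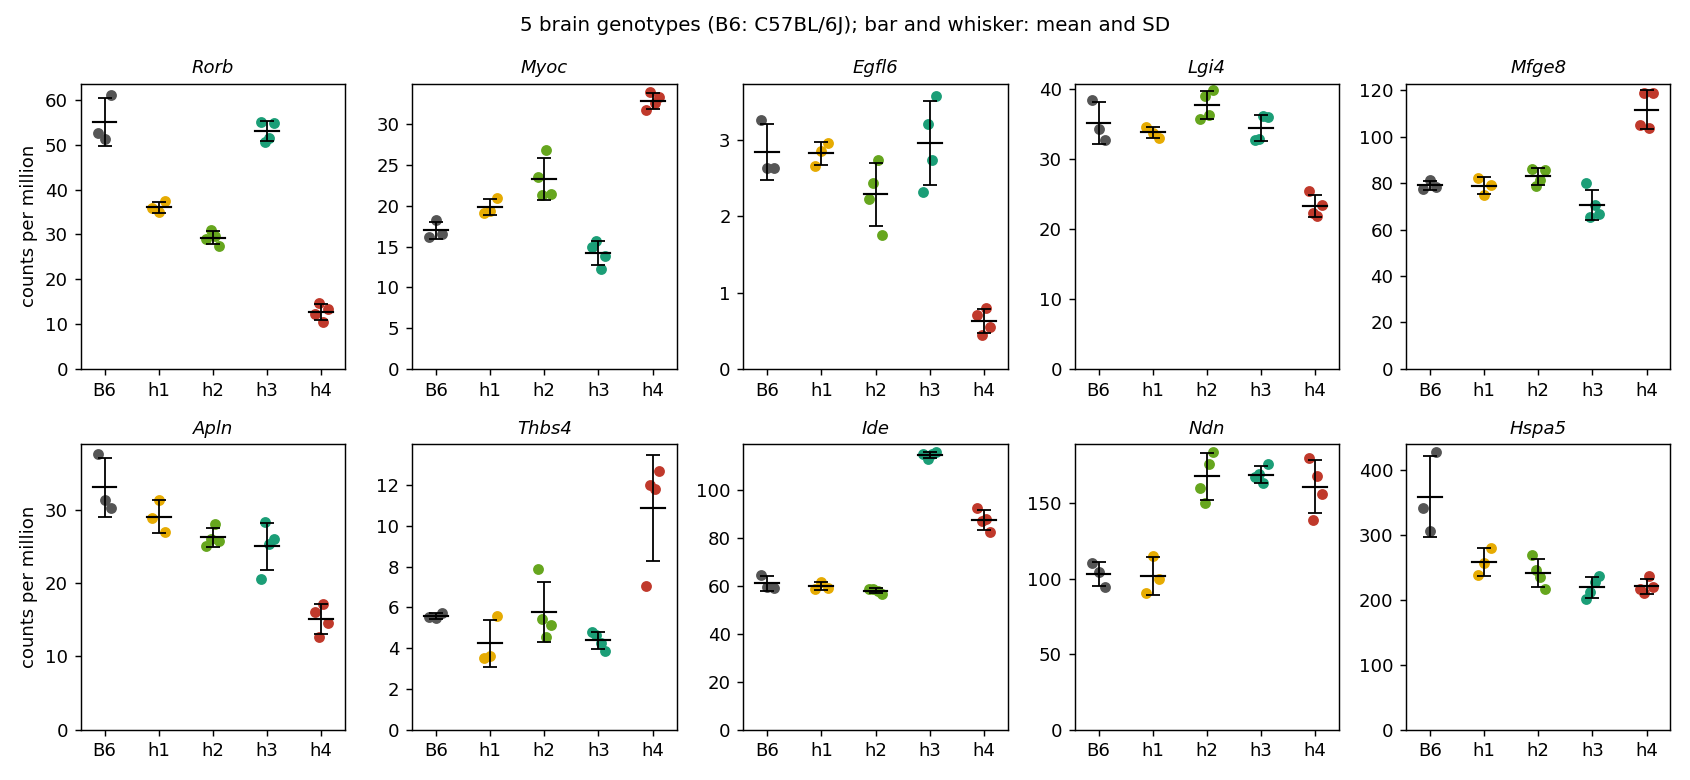
CPM per brain (vertical axes from 0) in C57BL/6J (B6), h1, h2, h3 and h4 for 10 genes, with the bar at the mean and the whisker at the SD. Rorb, Egfl6, Lgi4 and Apln are lowest and Myoc, Mfge8 and Thbs4 have the highest mean in h4. Hspa5 is highest in C57BL/6J, and its h4 range overlaps those of h2 and h3 and lies just below that of h1.

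Spinal cords of the same 7 mice were used to test whether the difference between h4 and C57BL/6J was the same in both tissues. In the cord 305 of 17427 genes were called (1.75%), and Rorb was at 36.1 to 40.5 CPM in controls and 7.08 to 10.1 CPM in h4 (log2 fold change -2.21, adjusted p = 7.7e-09, edgeR). For Rorb the difference between the 2 tissue effects was 0.10 on the log2 scale (SE 0.16, adjusted p = 0.89, edgeR with the mouse as a block). Only 2 of 18513 genes (0.0108%) were called for a difference between the tissues by edgeR, with 1799 at an unadjusted p under 0.05 and 71 called by DESeq2. They were Hecw2, a ubiquitin ligase gene that rose by 0.25 in brain and fell by 0.20 in cord (adjusted p = 0.026 and 0.011, edgeR), and the unnamed ENSMUSG00000107260. Pappa, a protease gene of the insulin-like growth factor pathway, had a log2 fold change of -0.91 in brain and 0.08 in cord, and Pak5, a neuronal kinase gene, 0.49 and -0.07. The differences of the last pair were not called (adjusted p = 0.086 and 0.10, edgeR). The number of calls in this test was decided by single mice, with 127 called without C57BL/6J replicate 3, 30 without h4 replicate 1 and 0 without C57BL/6J replicate 2.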

How the data were processed

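Poly-A RNA libraries of 7 brain hemisections (4 Rorb h4/h4, 3 C57BL/6J) were analysed, with 11 brains of other Rorb mutants and 7 spinal cords as comparison. The authors aligned reads with STAR to GRCm38 and deposited RSEM expected counts and TPM per gene. Expected counts were rounded, and from 4.77% to 5.42% of values were not whole. Identifiers numbered 45706, of which 41407 had a GENCODE symbol; positions and promoters came from RefSeq (GRCm38.p6). edgeR 4.0.16 (filterByExpr, TMM, quasi-likelihood test, adjusted p under 0.05) was used in R 4.3.3. It was checked on simulated counts. DESeq2 1.42.0, the tool of the study, was an alternative. TPM was described only. Spread is that between mice. Named genes were Rorb, the 30 smallest p-values, called genes over 2-fold, called list members, members of 4 lists, genes within 1 Mb of Rorb and the 10 smallest p-values of the other tests, 100 in all. The members and lists were chosen with earlier results of these data known. C57BL/6J and h4 mice with equal replicate numbers were not treated as paired. Of the counts, 2.6% to 12.7% per brain fell on identifiers without a symbol. Of 9 pairs of replicate libraries compared, 0 were identical. The result of 1 gene is not reported here.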

Additional observations from a re-analysis of the deposited data

Results flagged for a closer look

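In 5 of 66 called genes, 1 of the 4 h4 brains lay far from the other 3 by Dixon's criterion, which flags about 1 in 20 groups by chance. Pla2g4e was highest in h4 replicate 2 at 10.8 CPM and Whrn was highest in the same brain at 34.4 CPM. In h4 replicate 1, Slc7a11 was lowest at 87.7 CPM, Thbs4 was lowest at 6.95 CPM and Fkbp4 was highest at 99.4 CPM. Each of these values lay beyond the range of the controls on the side of the other mutants.

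The effect of h4 differed between brain and spinal cord in 2 genes. For Hecw2 the brain effect minus the cord effect was 0.45 on the log2 scale, with 75.1 to 78.3 CPM in control brain, 86.3 to 94.9 CPM in h4 brain, 80.9 to 85.4 CPM in control cord and 69.3 to 74.4 CPM in h4 cord. For ENSMUSG00000107260 the fitted difference was -13.28, which depends on cords at 0 and is no bound. Its 3 control brains were at 0, 9.52 and 2.10 CPM and its h4 brains at 0.521, 1.73, 0 and 0 CPM, the control cords were all at 0, and the h4 cords ran from 1.73 to 6.29 CPM. The causes were not tested.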

How the results depend on the processing

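The direction of all 66 named genes called in h4 brain was kept in every alternative tried, and each call was kept with DESeq2, with its size factors in edgeR, without the filter on low counts and with sex as a covariate. With the replicate block 3 of the 66 lost their call (Hspb1, Herpud1 and Whrn), and in 1 fit of 5 brain groups 6 did (Hspb1, Fabp7, Egr3, Bdnf, Opalin and Hecw2). The number of called genes was 451 with DESeq2, 359 without the filter, 236 in 1 fit of 5 brain groups, and 53 to 182 when 1 library was left out, against 125; of these 125, all were among the DESeq2 calls. With the replicate number as a block it was 244, of which 110 were among the 125. The correlations of same-numbered samples were 0.09, 0.15 and 0.14, and 2 of the 3 controls correlated best with an h4 brain of another number. Without C57BL/6J replicates 1, 2 and 3, respectively 24, 18 and 19 of the 66 genes lost their call, and without h4 replicates 1 to 4, 6, 22, 20 and 16. The change of Rorb passed the threshold in all these fits. Against the other mutants, 82 genes were called with DESeq2 and 29 to 37 with 1 h4 brain left out, against 41. The tissue difference gave 71 with DESeq2, 325 without the filter, 1 without the animal block and 0 to 127 with 1 mouse left out, against 2. Of 481 list medians under the alternatives, 21 moved by more than the spread between samples. The causes were not tested. Windows of 2 and 10 Mb around Rorb and Il1r1 also held 0 called genes. In motifs of genes called lower by DESeq2, ERSE was in 2.86% and ERSE-II in 0.952%. Il1r2, Il18r1, Il18rap, Peg12 and Agrp had too few counts for the filter and were not tested.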

Other observations

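Outside the lists, a few further genes were singled out after their values were seen. Cirbp, the cold-inducible RNA-binding protein gene, was at 26.1, 28.6 and 23.4 CPM in control brains and at 36.3, 39.1, 36 and 36.8 CPM in h4 brains (log2 fold change 0.51, SE 0.07, adjusted p = 0.0075, edgeR). Its log2 difference from the mean of h1, h2 and h3 was 0.10 (adjusted p = 0.77, edgeR). Chi3l1, a secreted chitinase-like protein gene of reactive astrocytes, fell by 0.63, and the urea transporter gene Slc14a1 rose by 0.57 in h4 brain. Chi3l1 and Slc14a1 also differed from the mean of the h1, h2 and h3 brains by -0.62 and 0.45 on the log2 scale. Chi3l1 was called in 2 of the 7 fits that left out a library, and Slc14a1 in 7. Pisd-ps2, which shares sequence with Pisd-ps1, was higher in h4 brain by 0.91 and higher than the mean of the other mutants by 0.85, and was called in 2 of those 7 fits. The division of reads between these pseudogenes is uncertain.

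Cholesterol synthesis genes were not called in any of 22 members, with a median log2 fold change of 0.07 and 19 of 22 values positive. Potassium channel genes (26 tested) and glutamate and GABA receptor genes (35 tested) had 0 calls in edgeR, 4 and 2 in DESeq2, and medians of 0.07 and 0.03. Clock genes (17 tested) also had 0 calls in edgeR, a median of 0.02, and 1 call in DESeq2. Over all genes, DESeq2 called 272 lower and 179 higher, where 17789 genes passed the filter of edgeR.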
